A study of Mus musculus with 12 samples.

Results

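Microglia are the resident macrophages of the brain, and in the undisturbed brain they express a set of genes that is called homeostatic. Described here are 9 homeostatic genes, P2ry12, P2ry13, Tmem119, Cx3cr1, Csf1r, Sall1, Siglech, Gpr34 and Fcrls, picked by their gene symbols out of the 25238 genes of the count table, in which all 9 were found. Not each of them separates microglia from other macrophages, since Csf1r is shared by all tissue macrophages. They were followed across RNA-seq libraries of mouse cortex next to an infarct, 4 labelled control, 4 labelled Veh and 4 labelled ISP. The Veh and ISP mice had a transient occlusion of the middle cerebral artery (MCAo) of 45 min at 10 to 12 weeks of age. From day 1 to day 14 after the stroke they received 5% DMSO in saline (Veh) or intracellular sigma peptide (ISP) at 1 µg/g/day, which enters cells and binds PTPσ, a receptor for chondroitin sulfate proteoglycans. Vehicle is what the labels and the methods name for Veh, whereas the study's account of the RNA-seq names a scrambled peptide, so which of them the Veh mice received is uncertain. The labels name peri-infarct cortex for the control libraries as well, but whether those mice had a stroke or a treatment, and on which day they were sampled, is not given, so a difference from them is a difference from libraries of that label and no more. Stroke was made in C57BL/6J males and in mice of the Nestin-creER-Ai9 line, of which the study used both sexes, and neither the line nor the sex that gave the RNA is stated. Each library came from 1 mouse, from frozen micro-punches 1 mm across that held neurons, glia, vessels and any cells that had entered, in proportions not measured.

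Several of the 9 genes encode receptors by which microglia read their surroundings. Csf1r is the receptor for the survival factors Csf1 and Il34, Cx3cr1 binds Cx3cl1 (fractalkine), which neurons make, and P2ry12 and P2ry13 are ADP receptors, the first of which guides microglial processes towards damage. Gpr34 is a receptor for lysophosphatidylserine, Siglech is a member of the Siglec family of lectins, Fcrls is an Fc receptor-like scavenger protein and Tmem119 is a membrane protein of unsettled function. Sall1 is a zinc finger transcription factor that helps to maintain microglial identity. Homeostatic genes are known to be turned down in microglia that respond to injury or disease, so their level in a tissue depends both on the number of microglia and on the state of each. In bulk tissue, fewer cells of a type and less RNA per cell cannot be told apart.

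P2ry12 and P2ry13 are neighbours on the minus strand of chromosome 3, with 5389 bases between them, at chr3:59216272-59262871 and chr3:59207892-59210882 (GENCODE M21, build GRCm38, that is mm10). Cx3cr1 is on chromosome 9 (chr9:119901616-120069879, minus strand). Myeloid genes are commonly bound by PU.1, a factor of the ETS family whose members recognise the core letters GGAA. The 250 bases before the RefSeq start of these 3 genes (GRCm38.p6) are shown because the genes lie close together or were among the highest of the 9. Capitals mark GGAA, or TTCC where it is on the other strand. Each is written 5′ to 3′ on the minus strand, from chr3:59262986-59263235 for P2ry12, chr3:59210883-59211132 for P2ry13 and chr9:120068297-120068546 for Cx3cr1.
P2ry12: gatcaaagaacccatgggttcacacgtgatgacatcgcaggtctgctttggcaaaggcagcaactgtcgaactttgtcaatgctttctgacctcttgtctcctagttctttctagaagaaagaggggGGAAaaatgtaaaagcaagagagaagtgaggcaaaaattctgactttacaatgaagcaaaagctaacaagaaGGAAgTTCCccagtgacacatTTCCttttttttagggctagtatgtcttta
P2ry13: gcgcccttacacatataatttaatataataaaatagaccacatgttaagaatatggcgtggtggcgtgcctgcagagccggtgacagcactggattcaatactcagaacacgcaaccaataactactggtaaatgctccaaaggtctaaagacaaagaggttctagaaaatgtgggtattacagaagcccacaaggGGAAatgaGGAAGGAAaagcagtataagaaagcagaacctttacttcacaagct
Cx3cr1: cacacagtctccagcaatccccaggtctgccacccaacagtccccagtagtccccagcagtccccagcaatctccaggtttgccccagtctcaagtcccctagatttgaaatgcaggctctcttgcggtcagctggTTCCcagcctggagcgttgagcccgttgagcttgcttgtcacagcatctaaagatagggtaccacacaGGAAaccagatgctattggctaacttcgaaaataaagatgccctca
The core was found 4 times before P2ry12, 3 times before P2ry13 and 2 times before Cx3cr1. Among the windows not shown, it was found 6 times before Fcrls, which was also among the highest of the 9. It was found 4 times before Siglech, and 2, 0 and 1 times before the starts of Sall1. It is a common string: 93.4% of 32851 RefSeq promoter windows of 250 bases held it, with a median of 3 matches. A fuller PU.1 site, GAGGAAGT, and the composite of PU.1 with an interferon regulatory factor, GGAANNGAA, were searched on both strands from 250 bases before to 50 after each start, and the 2 can overlap at their shared GGAA. They were in 3.20% and 8.24% of all such windows and in 0 of the 8 windows of the 6 members searched (P2ry12, P2ry13, Cx3cr1, Sall1, Siglech and Fcrls). This says only that these letters are not in these windows.

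Total counts were 21322702 to 29845629 in the control libraries, 17442711 to 24706638 in Veh and 19325979 to 28685864 in ISP. Levels are CPM, the reads of a gene scaled to a common library size, after TMM correction for library composition, and groups were compared with edgeR's quasi-likelihood test, with a gene called at an adjusted p under 0.1 over all genes tested. All 9 genes passed the filter on low counts in every comparison, and their lowest count in any library was 131 reads, for Gpr34 in control 38. Within the ISP group, ISP 14 and ISP 18 stood apart from ISP 12 and ISP 16. They held the first 2 places among all 12 libraries for 8 of the 9 genes, the exception being P2ry12, for which Veh 10 came second. Veh 10 was the highest Veh library for all 9 genes and was above both ISP 12 and ISP 16 for 8. Counts of called genes are therefore also given without ISP 14 and ISP 18.

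In the comparison of Veh with control, all 9 genes had positive log2 fold changes, 0.21 to 0.63 with a median of 0.51 (0.02 over all genes tested), and 3 of the 9 rose: Csf1r, Cx3cr1 and P2ry13. Of all 15126 genes tested, 1.03% were called higher. The 3 called genes were also those in which every Veh library was above every control library, which held for 4.11% of all genes. In the comparison of ISP with control, 8 of the 9 rose, all but Tmem119, with log2 fold changes of 0.65 to 1.71 over the 9 and a median of 1.02 (-0.01 over all genes). Called higher there were 6.74% of 15232 genes. Every ISP library was above every control library for 7 of the 9, against 7.00% of all genes. Both comparisons use the same control libraries and are therefore not independent. Between ISP and Veh, 0 of the 9 passed, as did 0.00% of the 15214 genes tested by edgeR, and for 0 of the 9 did the groups separate, which 2.74% of all genes did. At an unadjusted p under 0.05, there were 5 of the 9 genes and 2334 of all genes between ISP and Veh. DESeq2 called 405 genes there and limma-voom 0, and neither called any of the 9. The median log2 fold change of ISP over Veh was 0.67 (0.02 over all genes).

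The calls for Veh over control depended on single libraries. Over the alternatives the log2 fold changes were 0.43 to 0.69 for Csf1r, 0.42 to 0.64 for Cx3cr1 and 0.53 to 0.72 for P2ry13. With control 21, control 36, control 38 or Veh 2 left out 0 of the 9 were called, without Veh 10 1 was (Csf1r), and with all 12 libraries in 1 fit or an adjusted p under 0.05 0 were. The counts over all genes fell with them, from 337 called to 0 without control 21, 6 without control 36, 84 without control 38, 6 without Veh 2, 111 without Veh 10, 28 with all 12 libraries in 1 fit and 18 at an adjusted p under 0.05. Without ISP 14 and ISP 18, 2 of the 9 (Csf1r and Cx3cr1) were called between ISP and control, where 71 of 15497 genes were called higher, and the log2 fold changes of the 9 were 0.14 to 0.63. Between ISP and Veh they were then -0.13 to 0.14. That fit left out the highest ISP libraries and kept Veh 10, so lower values were to be had from the choice alone. Over all alternatives for ISP over Veh, the highest log2 fold change of each gene was between 0.47 (P2ry12) and 1.49 (Fcrls).

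**Figure D1:**
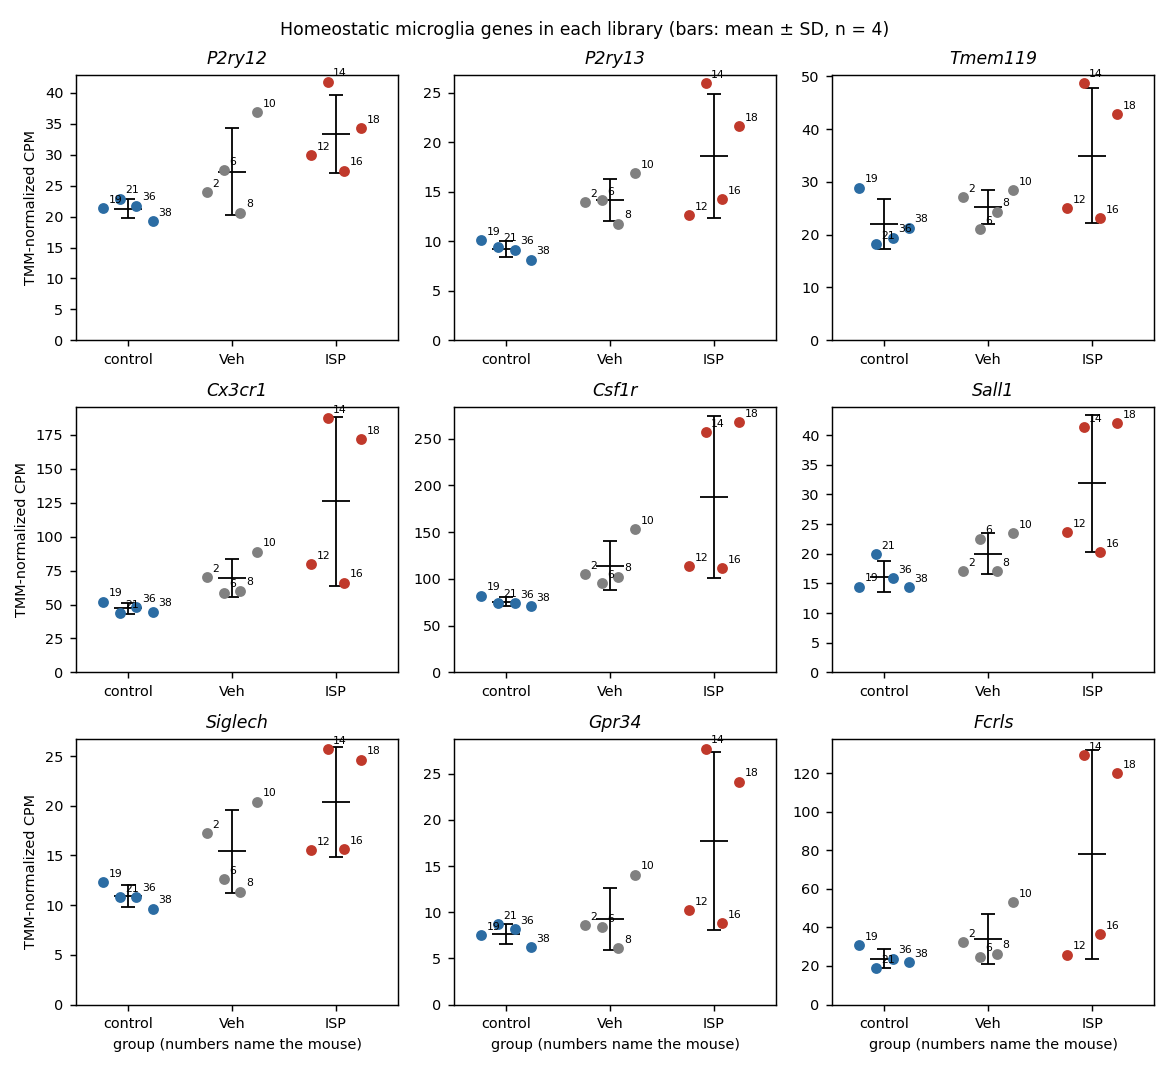
Level of each of the 9 genes in each of the 12 libraries, in CPM after TMM scaling on linear axes that start at 0, with 1 point per library and bars for the mean ± SD of each group (n = 4). For 8 of the 9 genes, ISP 14 and ISP 18 are the highest of the 12, and Veh 10 is the highest Veh library for all 9.

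Csf1r (ENSMUSG00000024621, chr18:61100598-61132149, plus strand) had the highest level of the 9 per kilobase of exon in the control and Veh groups. It was at 82.0, 74.5, 74.2 and 70.8 CPM in control 19, 21, 36 and 38, at 105, 95.5, 102 and 153 CPM in Veh 2, 6, 8 and 10, and at 113, 257, 111 and 268 CPM in ISP 12, 14, 16 and 18. All 8 Veh and ISP libraries lay above all 4 control libraries, while ISP 12 and ISP 16 lay inside the Veh range. Group means were 75.4 ± 4.74 CPM (SD, n = 4) in control, 114 ± 26.5 in Veh and 187 ± 86.6 in ISP. The log2 fold change was 0.61 for Veh over control (standard error 0.13, edgeR adjusted p = 0.0746) and 1.32 for ISP over control (standard error 0.26, edgeR adjusted p = 0.0271). For ISP over Veh it was 0.72 (standard error 0.29, edgeR adjusted p = 0.286), and without ISP 14 and ISP 18 it was -0.02. Hmgxb3, on the opposite strand, shares 15.1% of the exon bases of Csf1r, and strand marking is not described for these libraries. Hmgxb3 had log2 fold changes of -0.19, -0.22 and -0.01 in the 3 comparisons and was not called. Whether the overlap affected the counts of Csf1r was not tested.

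Cx3cr1 was also highest in ISP 14, ISP 18 and Veh 10. It was at 52.2, 43.8, 47.9 and 44.8 CPM in the control libraries, at 70.1, 58.8, 60.1 and 88.9 CPM in Veh 2, 6, 8 and 10, and at 79.6, 187, 66.0 and 172 CPM in ISP 12, 14, 16 and 18. No Veh or ISP library reached down to the control range, and ISP 14 and ISP 18 were far above every other library. The log2 fold change was 0.57 for Veh over control (standard error 0.13, edgeR adjusted p = 0.0747), 1.43 for ISP over control (standard error 0.28, edgeR adjusted p = 0.0271) and 0.87 for ISP over Veh (standard error 0.30, edgeR adjusted p = 0.271). Across the 12 libraries Cx3cr1 and Csf1r were the closest pair of the 9, with a Pearson r of 0.99 on log2 CPM, and 0.97 over the 10 libraries other than ISP 14 and ISP 18.

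The ADP receptors P2ry12 and P2ry13 are neighbours in the genome, and their levels had unequal spreads. P2ry12 was at 21.3, 22.9, 21.7 and 19.3 CPM in the control libraries, at 23.9, 27.5, 20.6 and 36.9 CPM in Veh 2, 6, 8 and 10, and at 29.9, 41.8, 27.4 and 34.3 CPM in ISP 12, 14, 16 and 18. All ISP libraries were above all control libraries, but ISP 14, the highest, was only 1.96 times the control mean, the smallest such ratio in ISP 14 of any of the 9. The log2 fold change was 0.65 for ISP over control (standard error 0.13, edgeR adjusted p = 0.0273), 0.37 for Veh over control (standard error 0.16, edgeR adjusted p = 0.263) and 0.29 for ISP over Veh (standard error 0.18, edgeR adjusted p = 0.449).

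P2ry13 was at 10.1, 9.44, 9.13 and 8.12 CPM in the control libraries, at 13.9, 14.2, 11.8 and 16.9 CPM in Veh 2, 6, 8 and 10, and at 12.6, 25.9, 14.2 and 21.6 CPM in ISP 12, 14, 16 and 18. Here Veh and ISP were both clear of control, and ISP 12 and ISP 16 lay within the Veh range. The log2 fold change was 0.63 for Veh over control (standard error 0.14, edgeR adjusted p = 0.0752), 1.02 for ISP over control (standard error 0.21, edgeR adjusted p = 0.0275) and 0.40 for ISP over Veh (standard error 0.22, edgeR adjusted p = 0.398). Both ADP receptor genes lie within Med12l, which is on the opposite strand and shares 9 exon bases with P2ry12 and 0 with P2ry13. Med12l was at a log2 fold change of -0.32 for Veh over control, -0.20 for ISP over control and 0.13 for ISP over Veh, and was not called.

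**Figure D2:**
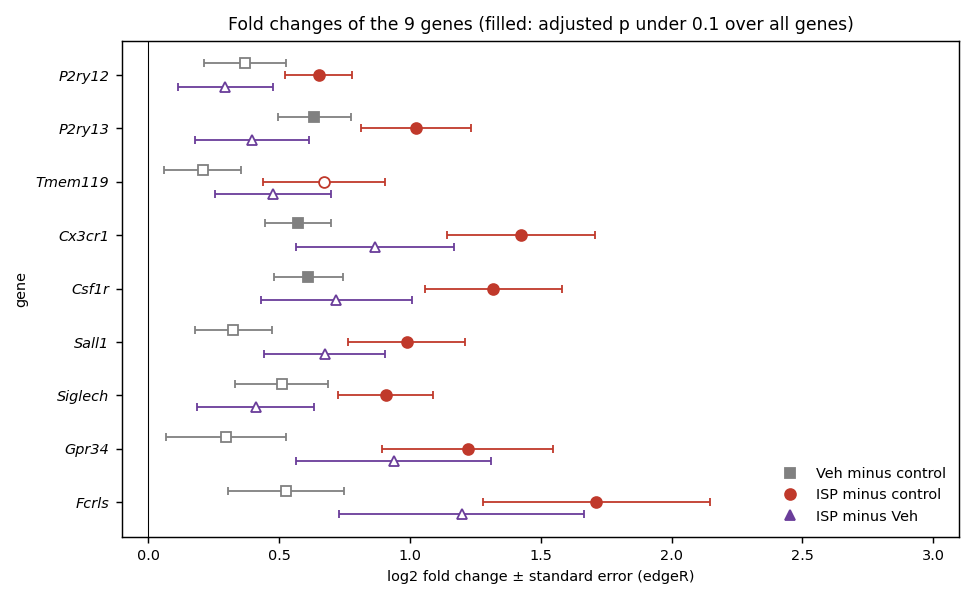
Log2 fold changes of the 9 genes from edgeR, with bars of 1 standard error, for Veh minus control, ISP minus control and ISP minus Veh. Filled symbols mark an adjusted p under 0.1, which 3, 8 and 0 of the 9 genes reached, and all 27 values are above 0.

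Gpr34 (chrX:13632089-13640858, plus strand, within an intron of Cask, which is on the opposite strand) was set apart from control mainly in ISP 14 and ISP 18. It was at 7.48, 8.72, 8.15 and 6.22 CPM in the control libraries, at 8.58, 8.38, 6.11 and 14.1 CPM in Veh 2, 6, 8 and 10, and at 10.2, 27.7, 8.81 and 24.2 CPM in ISP 12, 14, 16 and 18. Veh 2, 6 and 8 lay below the highest control library, and ISP 16 was just above it. Its log2 fold change was 1.22 for ISP over control (standard error 0.33, edgeR adjusted p = 0.0543), and the call was lost without control 19, control 36, control 38, ISP 14 or ISP 18. It was 0.30 for Veh over control (standard error 0.23, edgeR adjusted p = 0.572) and 0.94 for ISP over Veh (standard error 0.37, edgeR adjusted p = 0.286).

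Siglech (chr7:55768178-55778925, plus strand) was at 12.3, 10.8, 10.8 and 9.63 CPM in the control libraries, at 17.2, 12.6, 11.4 and 20.4 CPM in Veh 2, 6, 8 and 10, and at 15.5, 25.7, 15.6 and 24.6 CPM in ISP 12, 14, 16 and 18. Every ISP library was above every control library, and Veh 8 alone of the Veh libraries was not. The log2 fold change was 0.91 for ISP over control (standard error 0.18, edgeR adjusted p = 0.0273), 0.51 for Veh over control (standard error 0.18, edgeR adjusted p = 0.183) and 0.41 for ISP over Veh (standard error 0.23, edgeR adjusted p = 0.399).

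Fcrls (chr3:87250758-87263738, minus strand) had the widest range of the 9 as a multiple of its control mean. It was at 30.7, 18.9, 23.7 and 22.0 CPM in the control libraries, at 32.3, 24.7, 26.4 and 53.0 CPM in Veh 2, 6, 8 and 10, and at 25.8, 129, 36.4 and 119.9 CPM in ISP 12, 14, 16 and 18. ISP 12 lay below control 19, so the ISP and control groups overlapped, whereas ISP 14 was 5.42 times and ISP 18 5.03 times the control mean. Its log2 fold change was 1.71 for ISP over control (standard error 0.43, edgeR adjusted p = 0.0464), and the call was lost without control 36, control 38, ISP 14 or ISP 18 and with limma-voom. It was 0.53 for Veh over control (standard error 0.22, edgeR adjusted p = 0.260) and 1.20 for ISP over Veh (standard error 0.47, edgeR adjusted p = 0.284), and without ISP 14 and ISP 18 the latter was -0.13.

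Tmem119 (chr5:113793729-113800516, minus strand) was the only one of the 9 not called between ISP and control. It was at 28.9, 18.2, 19.5 and 21.4 CPM in the control libraries, at 27.1, 21.0, 24.4 and 28.4 CPM in Veh 2, 6, 8 and 10, and at 25.0, 48.8, 23.1 and 42.8 CPM in ISP 12, 14, 16 and 18. Control 19 was above all 4 Veh libraries and above ISP 12 and ISP 16. Its log2 fold change was 0.67 for ISP over control (standard error 0.23, edgeR adjusted p = 0.115), 0.21 for Veh over control (standard error 0.15, edgeR adjusted p = 0.528) and 0.48 for ISP over Veh (standard error 0.22, edgeR adjusted p = 0.334). Tmem119 was called between ISP and control by DESeq2, with no filter on low counts, with all 12 libraries in 1 fit, and without ISP 12 or ISP 16.

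Sall1 (chr8:89027235-89044162, minus strand), the transcription factor among the 9, was at 14.5, 19.9, 15.8 and 14.4 CPM in the control libraries, at 17.1, 22.5, 17.0 and 23.4 CPM in Veh 2, 6, 8 and 10, and at 23.7, 41.4, 20.3 and 42.1 CPM in ISP 12, 14, 16 and 18. All ISP libraries were above all control libraries, ISP 16 narrowly so. ISP over control gave a log2 fold change of 0.99 (standard error 0.22, edgeR adjusted p = 0.0346), a call that was lost without control 38 or ISP 14. For Veh over control it was 0.32 (standard error 0.15, edgeR adjusted p = 0.298), and for ISP over Veh 0.67 (standard error 0.23, edgeR adjusted p = 0.270).

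Levels of different genes were compared only per kilobase of exon. In the control libraries the order was Csf1r at 13.1 ± 0.821 CPM per kb (SD, n = 4), Cx3cr1 at 10.5, Fcrls at 10.2, Tmem119 at 9.50 and P2ry12 at 8.37, followed by Gpr34 at 3.66, P2ry13 at 3.64, Siglech at 3.22 and Sall1 at 3.07. Among neighbours in that order, only Csf1r and Cx3cr1, and P2ry12 and Gpr34, had ranges that did not overlap, so an upper set of 5 genes was clear of a lower set of 4, and all other neighbours overlapped. In Veh the same 5 genes stood above the other 4, from Csf1r at 19.8 ± 4.59 CPM per kb (SD, n = 4) to P2ry12 at 10.7, and only P2ry12 and the next gene, P2ry13 at 5.61, did not overlap. In ISP the spread was wide enough that all neighbours overlapped: Fcrls was at 33.4 ± 23.2 CPM per kb (SD, n = 4), Csf1r at 32.4 ± 15.0 and Cx3cr1 at 28.0 ± 13.8, while Siglech, the last, was at 6.02 ± 1.64.

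Whether the 9 genes kept fixed proportions was asked by dividing each by Csf1r in the same library, as a log2 ratio with 0.5 CPM added to both. None of the 24 ratios of 8 genes in 3 comparisons passed a Benjamini-Hochberg adjusted p of 0.1 in an exact two-sided permutation test, whose smallest possible p with 4 against 4 libraries is 0.0286. A single ratio at that p cannot pass adjustment over 24 tests, so the lack of a pass does not show that proportions were kept. The Tmem119 ratio reached that p between ISP and control. It was -1.49, -2.0, -1.90 and -1.71 in control 19, 21, 36 and 38 and -2.16, -2.39, -2.24 and -2.63 in ISP 12, 14, 16 and 18, lower in 4 of 4 ISP libraries than in any control library, with a mean difference of -0.58 (exact permutation p = 0.0286, adjusted p = 0.274). The P2ry12 ratio was -1.92, -1.68, -1.75 and -1.85 in the control libraries, -2.11, -1.78, -2.28 and -2.04 in Veh 2, 6, 8 and 10, and -1.91, -2.60, -2.0 and -2.95 in ISP 12, 14, 16 and 18. ISP 14 and ISP 18 thus had the lowest P2ry12 per Csf1r of the 12 libraries, and the mean difference between ISP and control was -0.56 (exact permutation p = 0.0571, adjusted p = 0.274). They were also the lowest for Siglech, at -3.30 and -3.42, and for P2ry13, at -3.28 and -3.60. The mean difference between ISP and control was -0.34 for Siglech (exact permutation p = 0.0571, adjusted p = 0.274) and -0.26 for P2ry13 (exact permutation p = 0.114, adjusted p = 0.392).

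The Fcrls ratio went the other way in the same 2 libraries. It was -1.40, -1.95, -1.63 and -1.66 in the control libraries and -2.12, -0.99, -1.60 and -1.15 in ISP 12, 14, 16 and 18, so ISP 14 and ISP 18 were above and ISP 12 below all controls, with a mean difference of 0.20 (exact permutation p = 0.514, adjusted p = 0.588). Cx3cr1 stayed within -0.78 to -0.45 in all 12 libraries. A ratio shows that 2 genes changed unequally and not which of them did.

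**Figure D3:**
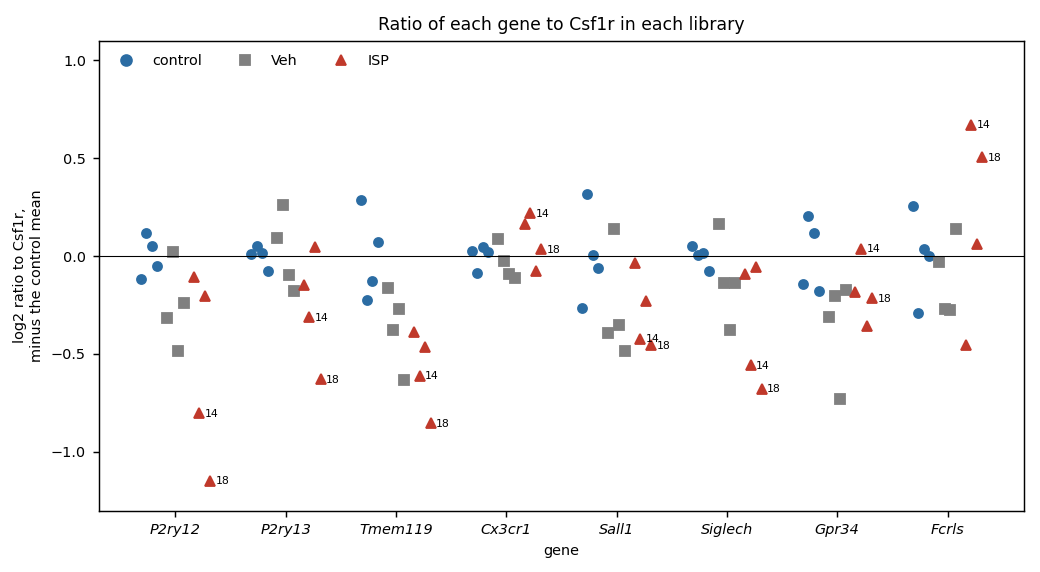
Log2 ratio of each gene to Csf1r in each library, minus the mean of the 4 control libraries for that gene. In ISP 14 and ISP 18 the ratios of P2ry12, P2ry13 and Siglech lie below and that of Fcrls above all other libraries. None of the 24 differences between groups passed the adjusted threshold, which a single ratio could not pass with 4 libraries in each group.

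The 9 genes varied together across libraries. Over their 36 pairs, Pearson r of log2 CPM across the 12 libraries ran from 0.72 (P2ry12 with Tmem119) to 0.99, with a median of 0.91. Without ISP 14 and ISP 18 it ran from 0.03 (Tmem119 with Sall1) to 0.97, with a median of 0.76. These libraries fall into groups with different levels, so the values describe the shared order of the libraries and were not tested.

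Among 13505 other genes with a mean of at least 1 CPM, predicted genes left out, those whose log2 profile was most like the mean standardized profile of the 9 were Fyb (r = 0.995 over 12 libraries), Plek (0.994), Unc93b1 (0.993), Mpeg1 (0.992), Fcgr1 (0.992), B2m (0.992), Ncf1 (0.990) and Trem2 (0.990). Their r over the 10 libraries left without ISP 14 and ISP 18 was 0.967 to 0.984, and 166 genes in all had r above 0.95. Fyb encodes an adaptor protein of blood cells, Plek pleckstrin, Unc93b1 a chaperone of endosomal Toll-like receptors, Mpeg1 a pore-forming protein of macrophages, Fcgr1 an IgG receptor, B2m the light chain of MHC class I, Ncf1 a subunit of the phagocyte NADPH oxidase and Trem2 a lipid-sensing receptor of microglia. Their log2 fold changes were 1.70 to 2.59 for ISP over control, all called by edgeR, and 0.74 to 1.04 for Veh over control, none called. With ISP 14 and ISP 18 left out, 3 of the 8 (Mpeg1, B2m and Trem2) were called between ISP and control, with log2 fold changes of 0.57 to 1.01 over the 8, and 0 between ISP and Veh, with -0.19 to 0.04.

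Of the proteins that the members bind or depend on, the ligands were followed in every comparison. Cx3cl1, the ligand of Cx3cr1, was at 1113 to 1442 CPM in control, 1014 to 1175 in Veh and 994 to 1225 in ISP, with log2 fold changes of -0.20 for Veh over control (edgeR adjusted p = 0.230) and -0.25 for ISP over control (edgeR adjusted p = 0.154). Csf1, a ligand of Csf1r, was at 11.5 to 19.0 CPM in control, 17.5 to 27.7 in Veh and 24.0 to 64.2 in ISP, and ISP 14 and ISP 18 were again its highest libraries, at 49.6 and 64.2 CPM. It rose in ISP over control, with a log2 fold change of 1.44 (standard error 0.29, edgeR adjusted p = 0.0275) and no overlap, and was at 0.69 (edgeR adjusted p = 0.177) with those libraries left out. Il34, the other ligand of Csf1r and largely neuronal in cortex, was at 65.5 to 98.8 CPM in control, 63.7 to 97.4 in Veh and 49.6 to 78.1 in ISP, with a log2 fold change of -0.33 for ISP over control (edgeR adjusted p = 0.215).

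Tgfb1, a cytokine that microglia need to keep their homeostatic program, was at 5.36 to 8.04 CPM in control, 7.57 to 12.97 in Veh and 7.99 to 25.8 in ISP, and rose in ISP over control by a log2 fold change of 1.26 (standard error 0.34, edgeR adjusted p = 0.0543) with overlapping groups. In the list of 15 ligands and signalling partners, 4 of the 14 tested rose and 1 fell between ISP and control, with a median log2 fold change of 0.27. The one that fell was Itgav, an integrin subunit that takes part in TGF-beta activation, at 73.7 to 86.4 CPM in control and 55.4 to 69.1 in ISP (log2 fold change -0.34, edgeR adjusted p = 0.0575). In Veh it was at 50.3 to 70.1 CPM, also below every control library, with a log2 fold change of -0.33 over control (edgeR adjusted p = 0.152). For ISP over Veh it was at 0.004 (edgeR adjusted p = 0.991). Between Veh and control 0 of 14 passed, and between ISP and Veh 0 of 15. With ISP 14 and ISP 18 left out, 0 of 14 passed between ISP and control.

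Other genes of the homeostatic program, 18 listed and 17 tested, had a median log2 fold change of 0.46 for Veh over control, where 7 rose, 0.87 for ISP over control, where 12 rose, and 0.62 for ISP over Veh, where 0 passed. None fell. Lag3, an inhibitory immune receptor, was at 4.50 to 6.86 CPM in control, 11.4 to 29.3 in Veh and 12.9 to 113 in ISP, with log2 fold changes of 1.62 for Veh (edgeR adjusted p = 0.0475) and 3.26 for ISP (edgeR adjusted p = 0.0205) over control, the latter 1.53 (edgeR adjusted p = 0.0164) with ISP 14 and ISP 18 left out. Adgrg1, an adhesion G protein-coupled receptor, was at 43.1 to 49.3 CPM in control, 64.8 to 84.4 in Veh and 65.9 to 77.3 in ISP. It rose by 0.65 in Veh (edgeR adjusted p = 0.0373) and by 0.63 in ISP (edgeR adjusted p = 0.0186) over control, with -0.01 for ISP over Veh (standard error 0.09, edgeR adjusted p = 0.970), and at 70.7 and 77.3 CPM ISP 14 and ISP 18 were inside its Veh range. Without ISP 14 and ISP 18, 5 of 18 passed between ISP and control, with a median of 0.49, and without Veh 10, 4 of 17 passed between Veh and control.

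Of 9 transcription factors of microglia, Sall1 aside, 1 rose between Veh and control, 5 between ISP and control and 0 between ISP and Veh, with medians of 0.24, 0.85 and 0.65. The one called in both was Irf8, an interferon regulatory factor needed for microglial development, at 2.93 to 4.36 CPM in control, 6.21 to 12.5 in Veh and 7.66 to 37.6 in ISP. Its log2 fold change was 1.21 for Veh over control (standard error 0.24, edgeR adjusted p = 0.0678) and 2.56 for ISP over control (standard error 0.49, edgeR adjusted p = 0.0254). Spi1, which encodes PU.1, was at 2.00 to 4.93 CPM in control, 5.02 to 8.68 in Veh and 5.58 to 16.9 in ISP, and rose in ISP over control (log2 fold change 1.44, edgeR adjusted p = 0.0576). With ISP 14 and ISP 18 left out, 0 of 9 passed in that comparison.

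Markers of myeloid cells at large moved with the 9 genes. Of 12 pan-myeloid genes (Ctss, Ly86, C1qa and C1qb among them), 2 rose in Veh over control, 12 in ISP over control and 0 in ISP over Veh, with median log2 fold changes of 0.71, 1.93 and 1.23, and 3 of 12 rose in ISP over control without ISP 14 and ISP 18. Their summed level was 201 to 315 CPM in control, 295 to 684 in Veh and 367 to 1792 in ISP. Relative to the control mean, the sum was 7.23 times in ISP 14 and 6.27 times in ISP 18, where the summed level of the 9 homeostatic genes was 3.36 and 3.21 times, and in Veh 10 it was 2.76 times against 1.86. In ISP 12 the 2 sums were 1.74 and 1.44 times the control mean, and in ISP 16 they were 1.48 and 1.38 times. Such sums are weighted to the most abundant genes, and the listed genes rose unequally. For ISP over control the log2 fold change was 2.50 for Ctss and 2.30 for C1qa, but 1.54 for Aif1 and 1.40 for Itgam. The last 2 were near Csf1r at 1.32 and Cx3cr1 at 1.43. Over all 9 genes the values were 0.65 to 1.71 with a median of 1.02, so Aif1 and Itgam were above that median.

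**Figure D4:**
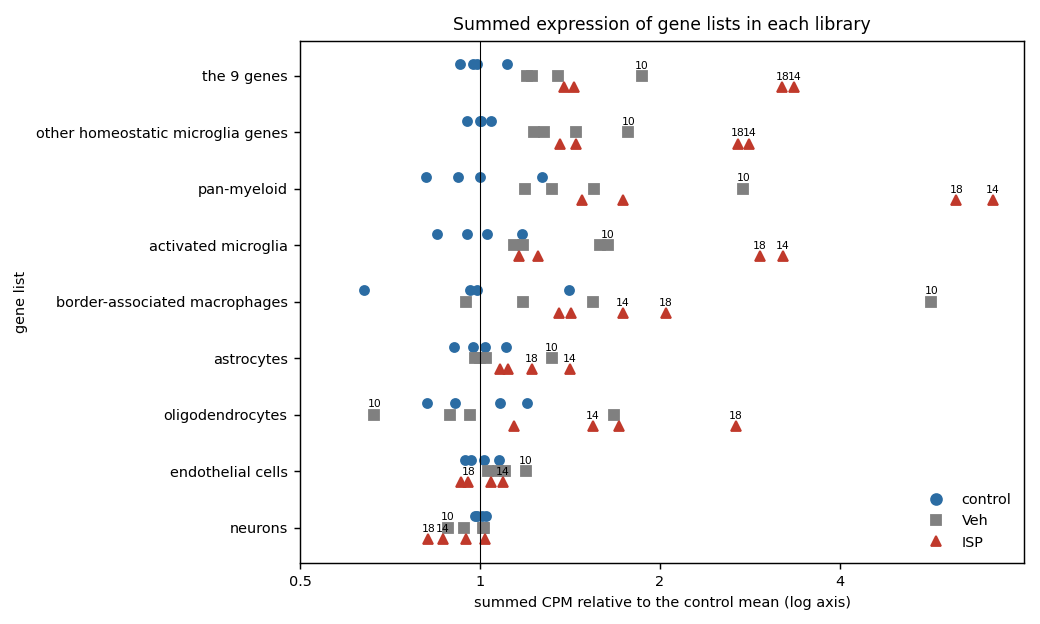
Summed CPM of the genes of each list, 1 point per library, divided by the mean of the 4 control libraries, on a log axis, with ISP 14, ISP 18 and Veh 10 marked. In ISP 14 the 9 genes sum to 3.36 times the control mean and the pan-myeloid genes to 7.23 times, and Veh 10 has the highest sum of border-associated macrophage genes.

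The other myeloid and immune cells that a punch could hold were represented at low levels. The means of 5 of 7 border-associated macrophage markers were under 1 CPM, and the list summed to 2.55 to 5.61 CPM in control, 3.77 to 22.7 in Veh and 5.39 to 8.14 in ISP. The 22.7 CPM were in Veh 10, where Mrc1 was at 8.07 CPM and F13a1 at 6.99 CPM. Of this list 0 passed in any of the 3 comparisons. Of 5 monocyte genes, 4 were under 1 CPM on average, Ccr2 and Ly6c2 among them, and the list's sum, 24.4 to 108 CPM over the 12 libraries, was mostly Fn1, a matrix protein that other cells also make, which was at 105 CPM in Veh 10. Ccr2, the chemokine receptor of blood-derived monocytes, was at 0 to 0.0475 CPM in control, 0, 0.0401, 0 and 2.63 CPM in Veh 2, 6, 8 and 10, and 0.103, 2.47, 0.241 and 1.05 CPM in ISP 12, 14, 16 and 18, with ISP 12 close to the control range. Ly6c2, a surface protein of the same cells, was at 0.0425 to 0.127 CPM in control, 0 to 0.0401 in Veh 2, 6 and 8, 0.986 in Veh 10, and 0, 1.89, 0.289 and 2.06 CPM in ISP 12, 14, 16 and 18. Both genes were thus highest in ISP 14, ISP 18 and Veh 10, the libraries in which most of the 9 genes were highest, and both were too low to pass the filter for a test. All 5 neutrophil and all 6 T and B cell genes averaged under 1 CPM. The part of these cells in the higher level of the 9 genes in ISP 14, ISP 18 and Veh 10 was not tested.

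Markers of other brain cells also differed between libraries. Oligodendrocyte genes (Mbp, Mog, Mobp and Cnp) rose in ISP over control, 4 of 4 with a median of 0.79 (0 of 4 without ISP 14 and ISP 18), and summed to 2386 to 3515 CPM in control, 1949 to 4915 in Veh and 3336 to 7854 in ISP. ISP 18 was the highest library, at 2.68 times the control mean, followed by ISP 12 at 5009.6 CPM and Veh 6 at 4915, both above ISP 14 at 4522, and Veh 10 was the lowest, at 0.665 times. Of 5 astrocyte genes 3 rose in ISP over control, with a median of 0.49 (2 of 5 with a median of 0.19 without ISP 14 and ISP 18), and summed to 2699 to 3296 CPM in control, 2920 to 3932 in Veh and 3218 to 4219 in ISP. None of 5 neuronal, 4 endothelial and 2 oligodendrocyte precursor genes passed in any comparison. The neuronal sum was 8433 to 8799 CPM in control and lowest in ISP 18 and ISP 14, at 7047 and 7440 CPM. Whether the make-up of the punches had a part in the differences of the 9 genes was not tested.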

How the data were processed

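RNA was extracted from punches of peri-infarct cortex, enriched for poly(A) RNA and sequenced, with 1 library per mouse and 4 mice per group. Reads were aligned by the authors with HISAT2 to mm10 and assigned to genes by HTSeq with default settings, and DESeq2 was their test. No version of these tools was given in the sources used here. What they deposited are raw counts of reads per gene. Groups and replicate numbers are those of the labels, the p-values measure the spread between mice, and no batch is given.

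For each comparison the 8 libraries of the groups concerned were fitted by edgeR 4.0.16 (R 4.3.3) with filterByExpr, TMM, glmQLFit and glmQLFTest, checked on simulated counts. Genes were called at a Benjamini-Hochberg adjusted p under 0.1. Levels used TMM factors over all 12 libraries, and lengths are the union of GENCODE M21 exons. The alternatives were DESeq2 size factors, DESeq2 1.42.0, limma 3.58.1 with voom and quality weights, other filters, all libraries in 1 fit, a threshold of 0.05, each library left out, ISP 14 and ISP 18 left out, and 1 CPM as pseudocount for the ratios. The members, the gene lists and the decision on which libraries to leave out were chosen with earlier results of these data known, and the GGAA core and the counts of listed and most alike genes without libraries were added after the values were seen. Named from each list were up to 4 genes with the smallest p for Veh over control, or the most abundant where most were under 1 CPM, with the 4 ligands always, and the 8 genes most like the mean profile. Aif1 and Itgam were named in addition, after the values were seen. A few genes are not reported here.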

Additional observations from a re-analysis of the deposited data

Results flagged for a closer look

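Of 27 combinations of the 9 genes with the 3 groups, 1 had a library far from the other 3. It was Csf1r in Veh, where Veh 10 was at 153 CPM and the next library at 105 CPM. The gap was 0.831 of the group's range, just past Dixon's 95% critical value for 4 libraries, which chance passes in about 1 of 20 groups. Veh 10 was the highest Veh library for all 9 genes, and Csf1r remained called between Veh and control without it, with a log2 fold change of 0.43.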

How the results depend on the processing

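No paired analysis was possible because the groups share no replicate number. For Veh over control, the 3 calls among the 9 genes became 0 with all 12 libraries in 1 fit and 0 at an adjusted p under 0.05, and with 1 library left out they ranged from 0 to 3. The 337 genes called became 510 with no filter, 1133 with DESeq2, 28 with all 12 libraries in 1 fit and 18 at an adjusted p under 0.05, and ranged from 0 (without control 21) to 461 with 1 library left out. For ISP over control, the 8 calls became 2 without ISP 14 and ISP 18 and ranged from 5 (without control 38 or ISP 14) to 9. The 1547 genes called became 691 at an adjusted p under 0.05 and 90 without ISP 14 and ISP 18, and ranged from 420 (without ISP 14) to 2283 (without ISP 16). For ISP over Veh, the count among the 9 was 0 in every alternative, and that over all genes, 0, became 405 with DESeq2 and ranged from 0 to 72 (without Veh 6). Without ISP 14 and ISP 18 the sign turned for P2ry13 (-0.073), Tmem119 (-0.064), Csf1r (-0.019) and Fcrls (-0.13) between ISP and Veh. The causes were not tested. With 4 mice a group the smallest permutation p is 0.0286, so a single ratio at that value cannot pass adjustment over 24 tests.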

Other observations

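Genes that microglia turn up when they respond to injury or disease were higher in the same libraries as the homeostatic genes. Of 18 such genes, 3 of 13 tested rose in Veh over control, 13 of 16 in ISP over control and 0 of 18 in ISP over Veh, with median log2 fold changes of 0.51, 2.02 and 1.21. Without ISP 14 and ISP 18, 5 of 16 rose in ISP over control, with a median of 0.43, and the median of ISP over Veh was -0.19. With Veh 10 left out instead, the median of ISP over Veh was 1.67. Cd9, a tetraspanin, had a log2 fold change of 0.82 in Veh over control (edgeR adjusted p = 0.0567) and 1.82 in ISP over control (edgeR adjusted p = 0.0223). Ccl6, a chemokine of macrophages, was at a mean of 0.683 CPM in control, 2.96 in Veh and 6.44 in ISP, and was called in both comparisons with control. Apoe, a lipid carrier that astrocytes also express strongly, was called in ISP over control, with a log2 fold change of 1.24 (edgeR adjusted p = 0.0532), and not in Veh over control, with 0.65 (edgeR adjusted p = 0.105). Whether the 2 comparisons with control differ for these genes was not tested.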
